A study of Homo sapiens with 18 samples.

Results

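The genes described here are 42 members of the machinery that licenses replication origins and carries out S phase, chosen by symbol from the deposited gene table, which holds 46218 gene IDs. All 42 were found, each under 1 gene ID, and all 42 passed the filter on low counts. The series measured RNA in 3 established human glioblastoma lines, LN229, T98G and U118-MG, whose labels name glioma cells of glial tissue. The groups are LN229 with a guide against DDA1 (sgDDA1), LN229 with a control guide (sgCon), T98G sgDDA1, T98G sgCon, U118-MG sgDDA1 and U118-MG sgCon, with 3 libraries in each and 18 in all. All cells were kept in DMEM with fetal bovine serum. The labels say neither whether the edited cells were pools or single clones nor whether replicate libraries trace back to different cultures. The p-values therefore reflect library-to-library spread only, and that spread may be technical.

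A replication origin is licensed in G1, when the origin recognition complex, CDC6 and CDT1 load the MCM2 to MCM7 helicase onto DNA as an inactive ring. Cyclin E with CDK2 then helps to switch the ring on, and MCM10, CDC45 and GINS turn it into the moving helicase of the fork. Relicensing is blocked in S phase by geminin and by destruction of CDT1 through the CRL4-CDT2 ubiquitin ligase, whose adaptor DDB1 is the protein that DDA1 binds. Most of these genes are textbook targets of E2F transcription factors and their transcripts peak around the G1/S boundary. In a bulk culture, fewer cells in S phase and less transcript per cell cannot be told apart.

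Promoter sequences were read for members that the results turn on, to show the letters that E2F factors are known to bind. RefSeq windows on GRCh38.p14, 250 bases before to 50 bases after the start, matched 38 of 42 members, the exceptions being MCM4, MCM5, GINS4 and CCNE2. The words TTTCCCGC, TTTCGCGC, TTTGCCGC and TTTGGCGC were searched on both strands. At least 1 word stood in a window of 21 of 38 members (55.3%), against 1090 of 27305 genes in the whole table (3.99%). The median GC content of the windows was 65.5% for members and 58.3% for all genes. Among all windows between the quartiles of GC content of the member windows (60.5% and 71.25%), 5.04% held a word, against 42.3% of the member windows in that range. CCAAT, searched on both strands, was found for 23 of 38 members (60.5%) and 39.7% of all genes. A match is a description of letters and not a bound site. The 200 bases before the start are given here, with the E2F words in capitals, for the helicase subunits MCM6 and MCM7, which responded differently in the lines, for E2F1, CDT1 and GINS2 as members with a word close to the start, and for CCNE1, which held none.
MCM6 (chr2:135876444-135876643, minus strand): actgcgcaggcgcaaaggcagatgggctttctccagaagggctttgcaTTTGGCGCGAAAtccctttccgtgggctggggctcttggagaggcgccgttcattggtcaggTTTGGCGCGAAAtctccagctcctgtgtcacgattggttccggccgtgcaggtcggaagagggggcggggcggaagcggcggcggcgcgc
MCM7 (chr7:100101398-100101597, minus strand): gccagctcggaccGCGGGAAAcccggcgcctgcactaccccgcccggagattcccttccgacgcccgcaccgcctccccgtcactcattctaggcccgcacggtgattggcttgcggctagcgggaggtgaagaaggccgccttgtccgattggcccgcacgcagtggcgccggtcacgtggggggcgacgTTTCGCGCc
E2F1 (chr20:33686386-33686585, minus strand): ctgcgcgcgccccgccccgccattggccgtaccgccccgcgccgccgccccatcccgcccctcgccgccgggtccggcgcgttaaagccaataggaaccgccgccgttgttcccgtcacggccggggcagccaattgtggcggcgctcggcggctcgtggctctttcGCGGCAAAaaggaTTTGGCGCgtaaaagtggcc
CDT1 (chr16:88803589-88803788, plus strand): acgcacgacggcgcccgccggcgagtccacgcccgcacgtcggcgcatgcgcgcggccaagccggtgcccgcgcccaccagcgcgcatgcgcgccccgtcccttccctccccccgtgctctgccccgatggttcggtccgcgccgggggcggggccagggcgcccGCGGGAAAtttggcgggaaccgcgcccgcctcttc
GINS2 (chr16:85688955-85689154, minus strand): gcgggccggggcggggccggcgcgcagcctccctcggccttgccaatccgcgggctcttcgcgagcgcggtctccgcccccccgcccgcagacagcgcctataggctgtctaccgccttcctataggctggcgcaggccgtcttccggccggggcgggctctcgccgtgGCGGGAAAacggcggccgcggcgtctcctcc
CCNE1 (chr19:29811791-29811990, plus strand): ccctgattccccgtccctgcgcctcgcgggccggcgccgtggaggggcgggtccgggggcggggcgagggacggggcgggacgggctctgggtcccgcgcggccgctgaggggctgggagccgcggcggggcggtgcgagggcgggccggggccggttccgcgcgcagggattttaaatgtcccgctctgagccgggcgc
In MCM6 the same run of capitals stands at 2 places, and each run holds 1 word on each strand, overlapping in its middle.

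Libraries held 44.9 M to 55.1 M counts, apart from LN229 sgCon 1 with 94.1 M, and no member was near the limit of detection, the lowest value being 4.47 CPM. CPM here are counts set relative to library size and scaled between libraries by TMM. DDA1 itself stood at 34.2, 32.1 and 34.8 CPM in LN229 sgDDA1, against 47.6, 49.2 and 48.8 CPM in LN229 sgCon (log2 fold change -0.52, SE 0.05, adjusted p = 9.22e-11). It stood at 56.6, 59.8 and 55.6 CPM in T98G sgDDA1, against 61.4, 68.3 and 67.0 CPM in T98G sgCon (log2 fold change -0.20, SE 0.05, adjusted p = 0.00107), so that neither pair overlapped. In the libraries labelled U118-MG the target was not lower, with 66.3, 59.0 and 63.8 CPM in those labelled sgDDA1, against 71.7, 56.0 and 50.02 CPM in those labelled sgCon (log2 fold change 0.09, SE 0.10, adjusted p = 0.45). These groups overlapped, so the DDA1 transcript does not tell the guide labels apart there. The libraries labelled U118-MG sgCon also stood apart from their line. Those labelled U118-MG sgCon 2 and 3 lay at a median absolute difference of 0.206 and 0.213 in log2(CPM + 1) from LN229 sgCon over all genes tested, at 0.206 and 0.187 from LN229 sgDDA1, and at 0.531 and 0.544 from libraries labelled U118-MG sgDDA1. The library labelled U118-MG sgCon 1 lay at 0.372 from LN229 sgDDA1, its nearest group other than its own, and at 0.617 from libraries labelled U118-MG sgDDA1. LN229 and T98G were therefore fitted without the 6 libraries labelled U118-MG, and the libraries labelled U118-MG are described last. Of 10 glioma and astroglial markers, 9 passed the filter, and 6 were called higher and 1 lower in LN229 sgDDA1 than in LN229 sgCon, against 3 higher and 3 lower in T98G. The largest change was in the neural stem cell filament gene NES in LN229 (2.52, SE 0.08). Their summed level was 197 to 213 CPM in LN229 sgDDA1 and 142 to 150.4 CPM in LN229 sgCon, and 2860 to 2898 CPM in T98G sgDDA1 and 3730 to 3783 CPM in T98G sgCon. Their part in the results was not tested. S100B was at or below 0.153 CPM in every group mean, and SOX2 averaged 0.13 CPM in T98G sgDDA1 and 0.13 CPM in T98G sgCon. PTPRC and CD3E, which mark blood cells, stayed at or below 0.215 CPM in every group mean.

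The DDA1 guide was set against the control guide in each line to ask how targeting a CRL4 component changes the transcriptome. In both lines more members fell than rose. In LN229, 27 of 42 members were lower and 4 higher at an adjusted p under 0.05 (edgeR), where 21.5% of all 23082 genes tested were called lower and 28.9% higher (50.4% in either direction). All 3 sgDDA1 libraries lay below all controls for 30 members and above them for 3, as they did for 24.4% and 32.2% of genes. The median log2 fold change of the members was -0.19, against 0.07 over all genes tested. In T98G, 26 members were lower and 3 higher, where 21.8% of genes were called lower and 21.6% higher (43.4% in either direction). There 28 members lay wholly below the controls and 4 wholly above, against 25.5% and 25.4% of genes, and the median log2 fold changes were -0.14 for members and 0.00 for all genes. The changes were small in size, with the largest falls at -0.60 in LN229 and -0.75 in T98G on the log2 scale. Among genes within the members' range of mean level, 38.6% were called lower and 32.1% higher in LN229, and 35.5% lower and 29.7% higher in T98G. In all, 16 members (38.1%) fell in both lines, against 9.10% of all genes tested and 18.2% of genes within the members' range of level. Those 16 are 59.3% of the 27 in LN229 and 61.5% of the 26 in T98G. Over all genes tested, those lower in both lines made up 42.3% of those lower in LN229 and 41.7% of those lower in T98G. Among genes within the members' range of level, those lower in both lines made up 47.2% of those lower in LN229 and 51.3% of those lower in T98G. Whether members were shared more often was not tested. In the fit of all 18 libraries, which adds the spread of those labelled U118-MG, 13 members stayed called in LN229 and 11 in T98G, all lower.

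**Figure D1:**
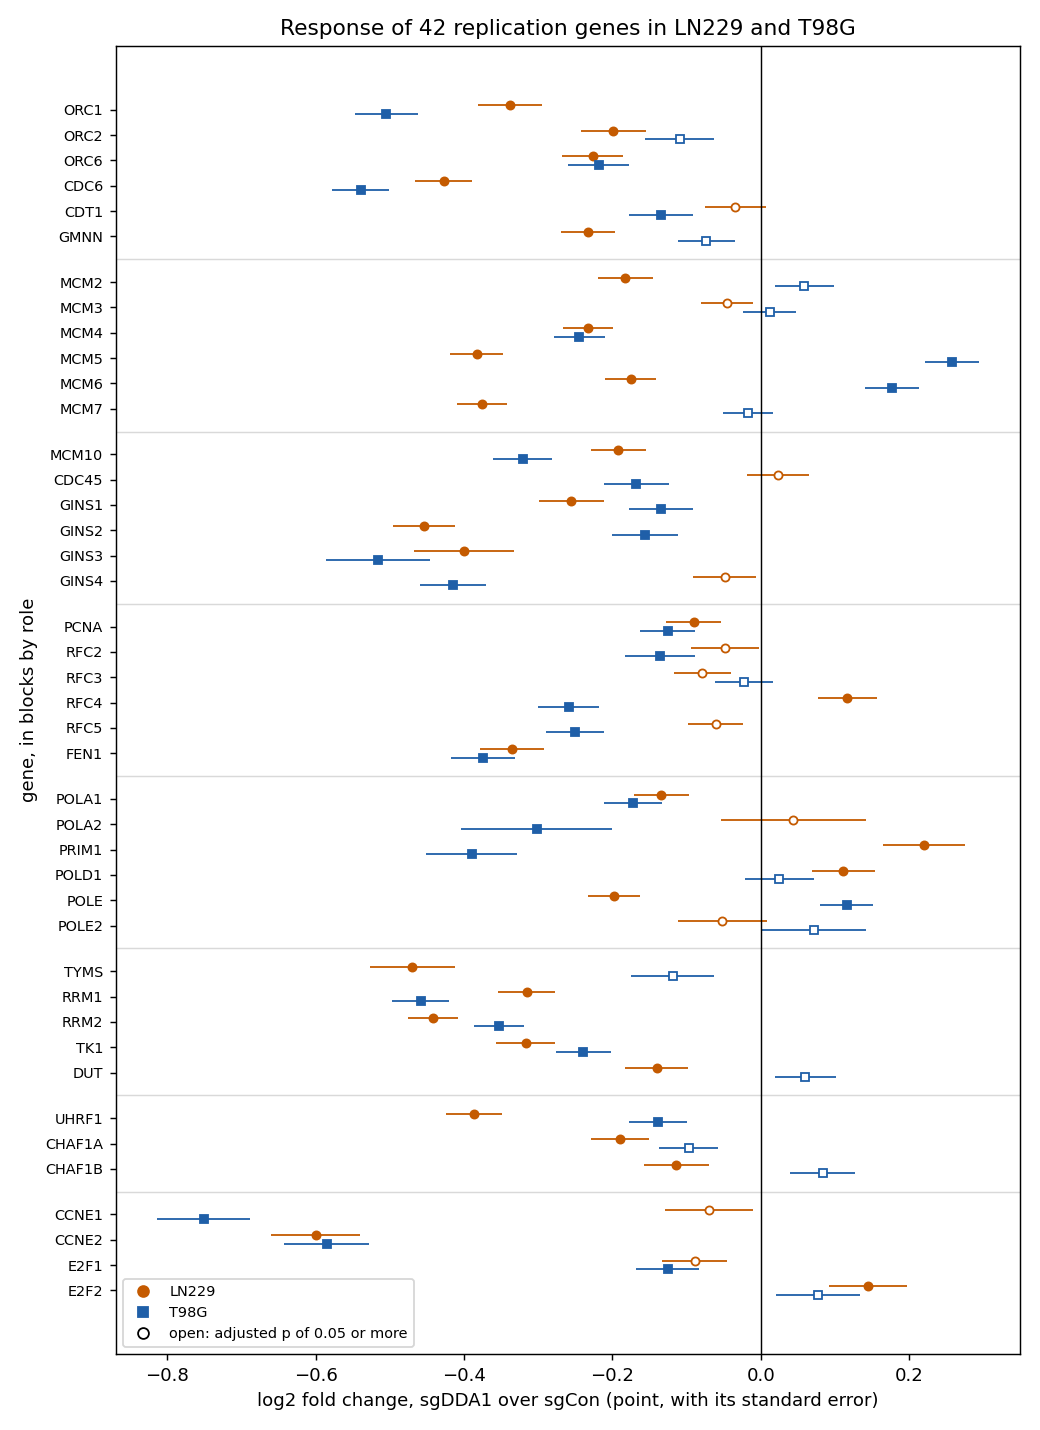
Log2 fold change of sgDDA1 over sgCon for each of the 42 members in LN229 (orange circles) and T98G (blue squares), with the standard error, in blocks by role. Filled points have an adjusted p under 0.05. Most points lie left of 0, and MCM5 and MCM6 lie on opposite sides in the 2 lines.

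Origin recognition and loading genes fell in both lines. Of the 6 genes of this step, 5 were lower in LN229 and 4 in T98G, and none was higher. Of all genes at the members' level, 38.6% were lower in LN229 and 35.5% in T98G. CDC6, the ATPase that recruits the helicase to the origin (chromosome 17, 40287633 to 40304657, plus strand), stood at 120, 129 and 115 CPM in LN229 sgDDA1, against 166, 165 and 160 CPM in LN229 sgCon. Its fold change was -0.43 (log2, SE 0.04, adjusted p = 3.82e-11), with all sgDDA1 libraries below all controls. In T98G, CDC6 stood at 145, 144 and 145 CPM in sgDDA1, against 217, 208 and 207 CPM in sgCon (-0.54, SE 0.04, adjusted p = 1.84e-13). The groups did not overlap there either. ORC1, the largest subunit of the origin recognition complex and the one that is turned over during the cycle, stood at 45.8, 44.1 and 44.7 CPM in LN229 sgDDA1, against 56.9, 58.2 and 55.3 CPM in LN229 sgCon (-0.34, SE 0.04). The T98G values were 57.2, 59.3 and 62.0 CPM in sgDDA1, against 82.5, 83.8 and 87.0 CPM in sgCon (-0.50, SE 0.04). The T98G response of ORC1 minus that of LN229 was -0.17 (SE 0.06, adjusted p = 0.0269).

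The other members of the loading step moved less. ORC6 was lower by similar amounts in LN229 (-0.23, SE 0.04) and T98G (-0.22, SE 0.04). ORC2 was lower in LN229 (-0.20, SE 0.04), and in T98G its value of -0.11 (SE 0.05) did not pass the test (adjusted p = 0.0577). CDT1, the loading factor that CRL4-CDT2 destroys in S phase, hardly moved as a transcript in LN229 and fell slightly in T98G. It stood at 72.4, 75.4 and 76.5 CPM in LN229 sgDDA1, against 79.4, 77.5 and 73.1 CPM in LN229 sgCon (-0.03, SE 0.04, adjusted p = 0.517), with overlapping groups. For T98G the levels were 52.2, 50.7 and 50.5 CPM in sgDDA1, against 55.4, 57.5 and 55.3 CPM in sgCon (-0.13, SE 0.04, adjusted p = 0.0109). GMNN encodes geminin, the inhibitor of CDT1. It stood at 114, 117 and 118.5 CPM in LN229 sgDDA1, against 139, 137 and 136 CPM in LN229 sgCon (-0.23, SE 0.04), and at -0.07 (SE 0.04, adjusted p = 0.128) in T98G. CDT1 and geminin protein were not analysed here.

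For 4 of the 6 subunits of the MCM ring the responses of the lines differed. In LN229, 5 of the 6 subunits fell and none rose. In T98G, MCM5 and MCM6 rose and MCM4 fell, and 3 did not pass the test. Genes at the members' level fell in 38.6% of cases in LN229, and in T98G 35.5% fell and 29.7% rose. Their response was called higher in T98G than in LN229 for 31.2% and lower for 27.9%. MCM5 (chromosome 22, 35400063 to 35425430, plus strand) stood at 167, 167 and 176 CPM in LN229 sgDDA1, against 220, 227 and 219 CPM in LN229 sgCon (-0.38, SE 0.04, adjusted p = 7.83e-11). T98G libraries gave 162, 160 and 161 CPM in sgDDA1, against 132, 140 and 132 CPM in sgCon (0.26, SE 0.04, adjusted p = 4.33e-07). The groups did not overlap in either line, and the response in T98G minus that in LN229 was 0.64 (SE 0.05, adjusted p = 3.8e-12). MCM6, whose promoter is shown above, stood at 220, 219 and 222 CPM in LN229 sgDDA1, against 256, 250 and 242 CPM in LN229 sgCon (-0.18, SE 0.03). In T98G it stood at 98.5, 102 and 100.4 CPM in sgDDA1, against 88.2, 90.2 and 88.0 CPM in sgCon (0.18, SE 0.04). The difference between the lines was 0.35 (SE 0.05, adjusted p = 5.6e-07).

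MCM7 fell in LN229, standing at 389, 398 and 393 CPM in sgDDA1 and 521, 519 and 494 CPM in sgCon (-0.38, SE 0.03). In T98G its groups overlapped, at 268, 271 and 280 CPM in sgDDA1 and 272, 278 and 278 CPM in sgCon (-0.02, SE 0.03, adjusted p = 0.733). MCM2 was lower in LN229 (-0.18, SE 0.04), while its value of 0.06 (SE 0.04) in T98G did not pass the test. For both subunits the responses differed between the lines, by 0.36 (SE 0.05) for MCM7 and 0.24 (SE 0.05) for MCM2. MCM4 was the subunit that fell in each line, at -0.23 (SE 0.03) in LN229 and -0.24 (SE 0.03) in T98G. MCM3 did not pass the test in LN229 (-0.05, SE 0.03) or in T98G (0.01, SE 0.04). Set per length as the authors' deposited FPKM, the subunits were unequal in every group. In LN229 sgDDA1, MCM3 led at 107 ± 1.61 FPKM and MCM7 followed at 103 ± 0.508 FPKM, while in LN229 sgCon MCM7 led at 129 ± 1.99 FPKM ahead of MCM3 at 107 ± 1.58 FPKM (mean ± SD, n = 3 each). MCM5 was lowest in both LN229 groups, at 26.7 ± 0.974 FPKM in sgDDA1 and 33.7 ± 0.822 FPKM in sgCon. In T98G, MCM3 led in both groups, at 74.3 ± 1.82 FPKM in sgDDA1 and 76.0 ± 1.52 FPKM in sgCon. MCM2 and MCM6 in T98G sgDDA1, at 22.6 ± 0.183 and 22.6 ± 0.419 FPKM, did not differ beyond their spread.

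**Figure D2:**
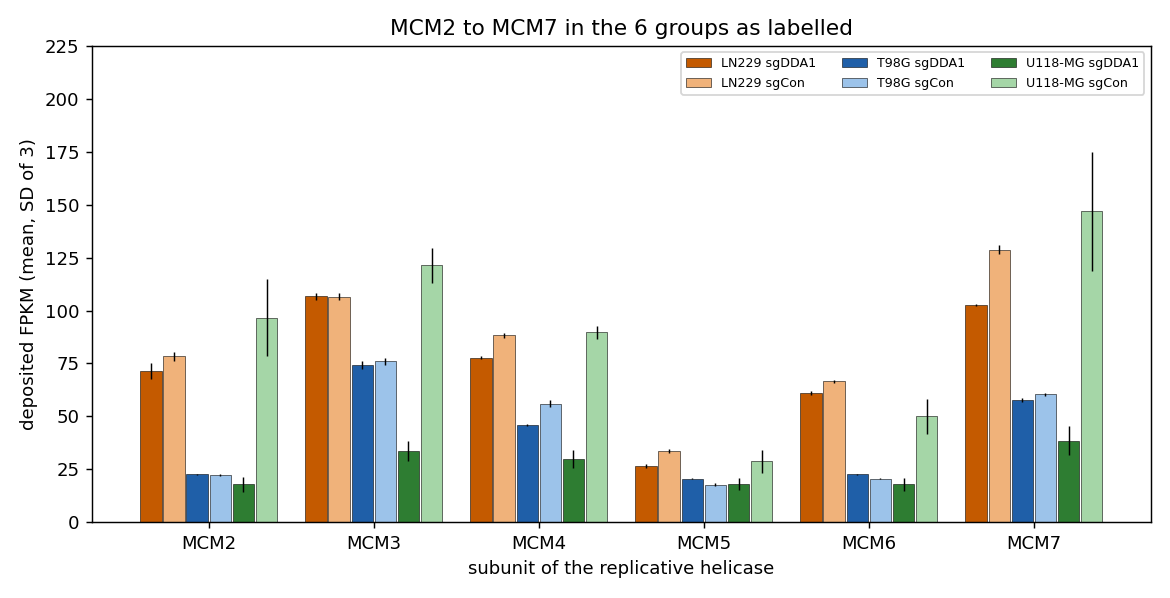
Deposited FPKM of the 6 helicase subunits, as the mean of 3 libraries with the SD, in the 6 groups as labelled. LN229 bars are lower in sgDDA1 than in sgCon for MCM7 (103 against 129 FPKM), and T98G bars for MCM2, MCM5 and MCM6 are all under 25 FPKM.

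Factors that switch on the helicase fell in both lines. In T98G all 6 were lower, and in LN229 it was 4 of 6, with none higher in either line. Among genes at the members' level, 35.5% were lower in T98G and 38.6% in LN229. GINS2, a subunit of the GINS complex that rides with the helicase, stood at 58.2, 57.8 and 54.8 CPM in LN229 sgDDA1, against 80.1, 78.3 and 75.7 CPM in LN229 sgCon (-0.45, SE 0.04, adjusted p = 7.44e-11). Its fall in T98G was smaller (-0.16, SE 0.04), and the lines differed by 0.30 (SE 0.06, adjusted p = 0.000175). GINS4 went the other way round, at 37.4, 37.1 and 38.3 CPM in T98G sgDDA1, against 49.8, 49.4 and 51.2 CPM in T98G sgCon (-0.41, SE 0.04), with a value of -0.05 (SE 0.04) in LN229 that did not pass the test. GINS3 fell in LN229 (-0.40, SE 0.07) and T98G (-0.52, SE 0.07), and GINS1 in LN229 (-0.26, SE 0.04) and T98G (-0.13, SE 0.04). MCM10, which helps the ring to open, was lower in LN229 (-0.19, SE 0.04) and T98G (-0.32, SE 0.04). CDC45 overlapped between guides in LN229 (0.02, SE 0.04) and was lower in T98G (-0.17, SE 0.04).

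Clamp and clamp loader genes gave 2 lower and 1 higher of 6 in LN229, and 5 lower of 6 in T98G. Polymerase and primase genes gave 2 lower and 2 higher of 6 in LN229, and 3 lower and 1 higher in T98G. The LN229 counts are near the shares of genes at the members' level (38.6% lower and 32.1% higher). In T98G those shares were 35.5% and 29.7%. PCNA, the sliding clamp, stood at 216, 233 and 219 CPM in LN229 sgDDA1, against 248, 236 and 228 CPM in LN229 sgCon, groups that overlapped (-0.09, SE 0.04, adjusted p = 0.0414). The T98G values were 308, 310 and 324 CPM in sgDDA1, against 342, 345 and 341 CPM in sgCon (-0.13, SE 0.04). FEN1, the nuclease that trims Okazaki fragments, was the member of this block that fell most, at -0.34 (SE 0.04) in LN229 and -0.37 (SE 0.04) in T98G. Of the clamp loader subunits, RFC4 rose in LN229 (0.12, SE 0.04, adjusted p = 0.0144) and fell in T98G (-0.26, SE 0.04), and RFC3 passed the test in neither line. RFC2 fell in T98G (-0.14, SE 0.05), as did RFC5 (-0.25, SE 0.04).

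PRIM1, the catalytic primase subunit that lays down RNA primers (chromosome 12, 56731596 to 56752373, minus strand), moved in opposite directions. It stood at 40.2, 45.2 and 42.6 CPM in LN229 sgDDA1, against 37.2, 36.2 and 36.6 CPM in LN229 sgCon (0.22, SE 0.06, adjusted p = 0.00117). For T98G the levels were 20.2, 17.7 and 20.4 CPM in sgDDA1, against 25.2, 24.7 and 26.5 CPM in sgCon (-0.39, SE 0.06, adjusted p = 2.83e-06). Neither pair of groups overlapped, and the responses differed by -0.61 (SE 0.08, adjusted p = 2.83e-07). POLE, the catalytic subunit of the leading strand polymerase, showed the reverse order, lower in LN229 (-0.20, SE 0.03) and higher in T98G (0.12, SE 0.04), with a difference of 0.31 (SE 0.05). POLA1, of the polymerase alpha complex with primase, fell in LN229 (-0.13, SE 0.04) and T98G (-0.17, SE 0.04). POLD1, the lagging strand catalytic subunit, was called higher in LN229 (0.11, SE 0.04, adjusted p = 0.029) with overlapping groups, and POLA2, the accessory subunit of polymerase alpha, lower in T98G (-0.30, SE 0.10). POLE2 passed the test in neither line.

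Of the genes of nucleotide supply, all 5 were lower in LN229 and 3 of 5 in T98G, with none higher. The shares at the members' level were 38.6% lower in LN229 and 35.5% in T98G. RRM1 and RRM2 encode the subunits of ribonucleotide reductase, which makes deoxyribonucleotides. RRM1 stood at 185, 203 and 184 CPM in LN229 sgDDA1, against 243, 242 and 229 CPM in LN229 sgCon (-0.32, SE 0.04), and at 204, 214 and 205 CPM in T98G sgDDA1, against 284, 283 and 287 CPM in T98G sgCon (-0.46, SE 0.04). RRM2 stood at 288, 300.2 and 286 CPM in LN229 sgDDA1, against 404, 397 and 388 CPM in LN229 sgCon (-0.44, SE 0.03, adjusted p = 6.21e-13), and fell in T98G by 0.35 on the log2 scale (SE 0.03). No group of either gene overlapped its control. TK1, the salvage thymidine kinase, fell in LN229 (-0.32, SE 0.04) and T98G (-0.24, SE 0.04). TYMS, which makes thymidylate, stood at 23.1, 25.1 and 25.7 CPM in LN229 sgDDA1, against 33.1, 34.9 and 34.6 CPM in LN229 sgCon (-0.47, SE 0.06), and its value of -0.12 (SE 0.06) in T98G did not pass the test. DUT, which keeps dUTP out of DNA, was lower in LN229 (-0.14, SE 0.04), and its value in T98G was 0.06 (SE 0.04, adjusted p = 0.26). In GENCODE 29, 39.1% of the exonic bases of TYMS overlap ENOSF1 on the other strand. No label states that strand was kept in the library or in counting, so the separate value of TYMS is uncertain. The same holds to a lesser extent for MCM2 (22.7%), GINS4 (21.2%), DUT (14.5%) and GINS3 (10.9%). POLA2 shares 35.1% of its exonic bases with AP000944.2, RRM2 20.2% with AC007240.1 and PRIM1 14.9% with AC117378.1. These 3 overlaps are on the same strand, so the separate values of these genes are uncertain whether or not strand was kept. Smaller overlaps with any 1 gene, at most 8.94% of exonic bases, are not listed.

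Of 3 chromatin copying genes, 3 were lower in LN229 and 1 in T98G. At the members' level 38.6% of genes were lower in LN229 and 35.5% in T98G, so the T98G count is near that share. Of 4 members of G1/S control, 1 was lower and 1 higher in LN229, near the shares of all genes, and 3 were lower in T98G. UHRF1, which hands DNA methylation to the new strand, stood at 188, 171 and 177 CPM in LN229 sgDDA1, against 237, 231 and 233 CPM in LN229 sgCon (-0.39, SE 0.04), with a smaller fall in T98G (-0.14, SE 0.04). The histone chaperone subunits CHAF1A (-0.19, SE 0.04) and CHAF1B (-0.11, SE 0.04) were lower in LN229, and neither passed the test in T98G. CCNE2, a cyclin E, fell in both lines. It stood at 17.1, 18.6 and 19 CPM in LN229 sgDDA1, against 27.6, 28.9 and 26.7 CPM in LN229 sgCon (-0.60, SE 0.06, adjusted p = 3.96e-10). T98G libraries gave 33.3, 33.4 and 30.9 CPM in sgDDA1, against 45, 51.0 and 50.4 CPM in sgCon (-0.58, SE 0.06), and the difference of responses was 0.01 (SE 0.08, adjusted p = 0.928). Its exons overlap INTS8 on the other strand over 37.0% of their bases, with the same reservation as for TYMS. CCNE1, the other cyclin E gene (chromosome 19, 29811898 to 29824308, plus strand), passed the test in T98G and not in LN229. It stood at 28.2, 27.9 and 27.3 CPM in LN229 sgDDA1, against 30.6, 28.9 and 28.1 CPM in LN229 sgCon (-0.07, SE 0.06, adjusted p = 0.351). In T98G it stood at 16.5, 17.3 and 19.8 CPM in sgDDA1, against 30.2, 30.5 and 29.6 CPM in sgCon (-0.75, SE 0.06, adjusted p = 8.73e-12). The responses differed by -0.68 (SE 0.09, adjusted p = 8.35e-08). E2F1, an activator of this gene programme, was at -0.09 (SE 0.04, adjusted p = 0.0915) in LN229 and -0.13 (SE 0.04, adjusted p = 0.0161) in T98G, and E2F2 was called higher in LN229 (0.14, SE 0.05).

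**Figure D3:**
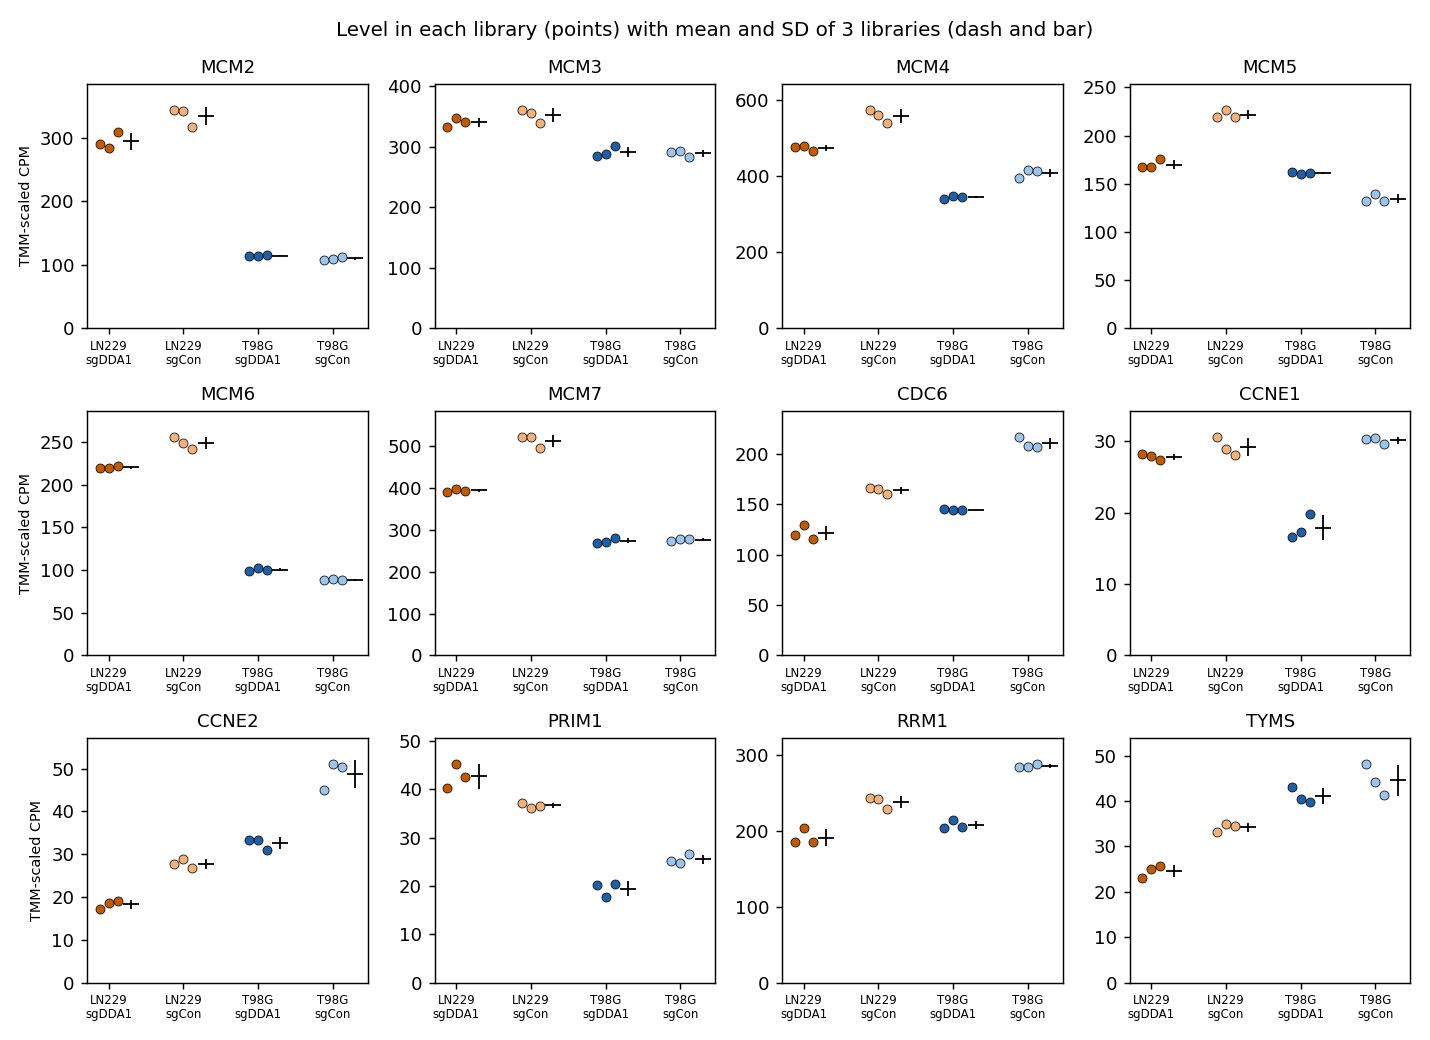
TMM-scaled CPM of 12 members in each LN229 and T98G library (points), with the mean and SD of 3 libraries, on axes that start at 0. CDC6, CCNE2 and RRM1 are lower in sgDDA1 in both lines, while MCM5 and PRIM1 change in opposite directions and CCNE1 is lower in T98G sgDDA1 (16.5 to 19.8 CPM).

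The responses of the lines were compared directly with an interaction term. For 11 members the response in T98G was called higher than in LN229 and for 8 it was called lower, where 18.3% and 20.9% of all genes tested were called (39.2% in either direction). Among genes at the members' level 31.2% were called higher and 27.9% lower, so a difference between the lines was no more common among members than among those genes. The higher ones included 4 of the 6 ring subunits, MCM2, MCM5, MCM6 and MCM7. The lower ones were CCNE1, PRIM1, RFC4, GINS4, CDC45, RFC5, ORC1 and RRM1. In the fit of all 18 libraries MCM5, PRIM1 and CCNE1 stayed called.

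**Figure D4:**
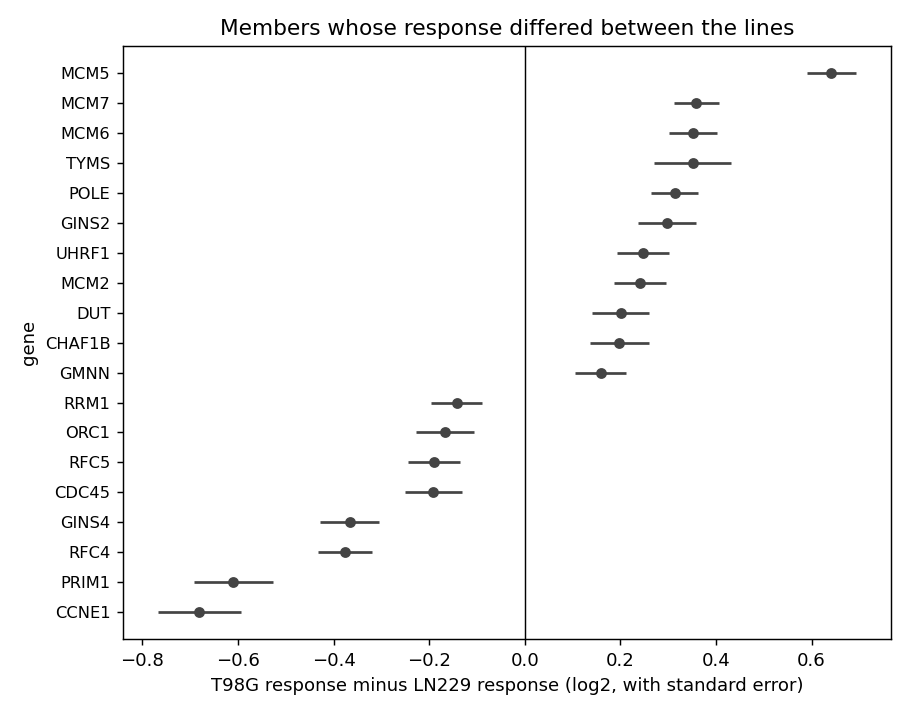
Response to the DDA1 guide in T98G minus that in LN229, on the log2 scale with its standard error, for the 19 members called. MCM5 is at 0.64 and CCNE1 at -0.68, the ends of the range.

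Other genes of the pathway were counted from lists that hold no member, to be read against 38.6% lower and 32.1% higher in LN229, and 35.5% lower and 29.7% higher in T98G, of all genes at the members' level. Of 44 further fork and licensing genes, 24 were lower and 5 higher in LN229, and 26 were lower and 7 higher in T98G. Among them in LN229 were POLE4, a small subunit of polymerase epsilon (-0.73), the topoisomerase gene TOP1 (-0.58) and the histone chaperone ASF1A (-0.58), and in T98G the checkpoint mediator CLSPN (-0.66), the clamp loader gene DSCC1 (-0.61) and the fork protection gene TIPIN (-0.47), all log2 fold changes. Of 12 further nucleotide genes 8 were lower and 2 higher in each line, CTPS1, which makes CTP, falling in LN229 (-0.51) and T98G (-0.29). SAMHD1, which breaks down deoxyribonucleotides, fell in LN229 (-0.48) and rose in T98G (0.55), DTYMK fell in LN229 (-0.40) and NME1 in T98G (-0.62). Of 28 G1/S regulators, 14 were lower and 10 higher in LN229, and 16 lower and 4 higher in T98G. In LN229 MYC rose (0.72), and in T98G the cyclin D gene CCND1 (-0.81) and the phosphatase gene CDC25A (-0.67) fell. The CDK inhibitor CDKN1C rose in both, standing at 5.23, 4.81 and 5.83 CPM in LN229 sgDDA1, against 1.97, 1.73 and 1.57 CPM in LN229 sgCon, and at 2.92, 4.30 and 4.72 CPM in T98G sgDDA1, against 1.87, 1.71 and 1.66 CPM in T98G sgCon. CDKN1A, which encodes the CDK inhibitor p21, rose in LN229 (0.64, SE 0.06) and fell in T98G (-0.43, SE 0.05), a difference of -1.08 (SE 0.08, adjusted p = 2.73e-13). Of 14 genes of the ligases that control licensing, 10 were lower and 2 higher in LN229 (71.4% and 14.3%). This list holds DDA1, the target of the guide, which is counted among the lower genes in both lines. In T98G 4 were lower and 2 higher (28.6% and 14.3%), no more than the shares for that line. The cyclin F gene CCNF (-0.51) and RBX1, the RING subunit of cullin ligases (-0.45), fell in LN229, while in T98G CUL4A, a CRL4 cullin, fell (-0.29) and the APC/C activator gene FZR1 rose (0.38). DTL, which encodes CDT2, the receptor for CDT1, stood at 149, 159 and 153 CPM in LN229 sgDDA1, against 144, 142 and 134 CPM in LN229 sgCon (0.13, SE 0.04, adjusted p = 0.0028). The T98G values were 138, 135 and 142 CPM in sgDDA1, against 182, 179 and 175 CPM in sgCon (-0.37, SE 0.04). Of 20 G2/M genes 16 were lower and 1 higher in LN229, and 10 were lower and 2 higher in T98G. CDC20 (-0.75), AURKA (-0.55) and PLK1 (-0.53), regulators of mitosis, fell in LN229, and the checkpoint kinase gene TTK (-0.26), AURKA (-0.25) and BUB1B (-0.25) fell in T98G.

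Summed over the 42 members, levels were 5024 to 5109 CPM in LN229 sgDDA1, against 5748 to 6021 CPM in LN229 sgCon, and 4209 to 4296 CPM in T98G sgDDA1, against 4756 to 4787 CPM in T98G sgCon. The G2/M genes moved with them in LN229, at 3045 to 3111 CPM in sgDDA1 and 3664 to 3871 CPM in sgCon, while in T98G their sums overlapped, at 3673 to 3920 CPM in sgDDA1 and 3817 to 4133 CPM in sgCon. The 9 immune, endothelial and epithelial markers, led by the keratin gene KRT8, summed to 102 to 106 CPM in LN229 sgDDA1 and 46.6 to 49.99 CPM in LN229 sgCon, and to 18.2 to 19.9 CPM in T98G sgDDA1 and 13.5 to 14.2 CPM in T98G sgCon. The part of either in the result was not tested.

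Under the control guide the lines held these genes at different levels, as they did most genes at the members' level. T98G sgCon was called lower than LN229 sgCon for 25 members and higher for 15, where 39.8% and 38.1% of all genes tested were called (77.9% in either direction). Among genes at the members' level 41.1% were called lower and 48.7% higher. In all 25 members lay wholly below and 15 wholly above, as did 40.7% and 38.8% of genes. All 6 ring subunits were lower in T98G, with MCM2 at 108, 110 and 112 CPM in T98G sgCon, against 345, 342 and 318 CPM in LN229 sgCon (-1.60, SE 0.04), and MCM6 at -1.49 (SE 0.04). Of the polymerase and primase genes 5 of 6 were lower, with POLE2, a subunit of polymerase epsilon, at -1.50 (SE 0.07). Nucleotide supply stood the other way, with 4 of 5 higher in T98G. TK1 stood at 144, 147 and 144 CPM in T98G sgCon, against 57.2, 58.7 and 55.2 CPM in LN229 sgCon (1.35, SE 0.04), and DUT at 0.72 (SE 0.04). CCNE2 (0.82, SE 0.06) and E2F1 (0.78, SE 0.04) were higher in T98G, and CCNE1 overlapped between the lines (0.04, SE 0.06, adjusted p = 0.519).

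The libraries labelled U118-MG sgDDA1 held the lowest summed level of the members, at 2396 to 3216 CPM. The library labelled U118-MG sgDDA1 1 stood apart from the other 2 libraries of its group, with 2396 CPM against 3184 and 3216 CPM. Against T98G sgDDA1, which has the same guide in its label, 28 members were lower and 3 higher, where 29.6% and 29.0% of 24418 genes tested were called (58.6% in either direction). Genes at the members' level were called lower in 36.6% of cases and higher in 34.1%. Of the members 31 lay wholly below and 1 wholly above, against 34.7% and 33.7% of genes. Without the library labelled U118-MG sgDDA1 1, 27 were lower and 3 higher, and the median log2 fold change was -0.40 in place of -0.52. GINS2 stood at 9.32, 12.5 and 12.4 CPM in libraries labelled U118-MG sgDDA1, against 42, 41.9 and 43.2 CPM in T98G sgDDA1 (-1.89, SE 0.13). CCNE1 stood at 4.47, 5.31 and 6.09 CPM in libraries labelled U118-MG sgDDA1, against 16.5, 17.3 and 19.8 CPM in T98G sgDDA1 (-1.75, SE 0.11), and RFC3 at -1.78 (SE 0.15). UHRF1 was among those higher, at 117.8, 160 and 167 CPM in libraries labelled U118-MG sgDDA1, against 97.0, 104 and 102 CPM in T98G sgDDA1 (0.55, SE 0.10). MCM2, MCM5 and MCM6 overlapped between these lines, at -0.15, -0.01 and -0.16 (adjusted p = 0.366, 0.943 and 0.203).

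The library labelled U118-MG sgCon 1 stood apart from the other 2 of its group, with a chi-square per gene of 152 and 153 against them and 10.0 between those, and with 6781 CPM summed over the members against 5869 and 5498 CPM. The contrast of guides within U118-MG as labelled gave the widest values among the comparisons made for these genes, and the line and the guide cannot be told apart in it. Of the members 35 were lower and 1 higher in libraries labelled U118-MG sgDDA1 than in the libraries labelled U118-MG sgCon, where 36.9% and 35.3% of genes were called (72.2% in either direction). Those counts were also 35 wholly below and 1 wholly above, against 35.6% and 34.9% of genes. The median log2 fold change was -1.08 for members and -0.05 for all genes. Among genes at the members' level, 38.3% were called lower and 44.1% higher. GINS2 stood at 9.32, 12.5 and 12.4 CPM in libraries labelled U118-MG sgDDA1, against 92.7, 66.9 and 64.5 CPM in the libraries labelled U118-MG sgCon (-2.71, SE 0.13). CDT1 stood at 18.6, 26.0 and 29.9 CPM in libraries labelled U118-MG sgDDA1, against 149, 94.6 and 90.6 CPM in those labelled U118-MG sgCon (-2.16, SE 0.16). CCNE2 was the member higher in sgDDA1, at 23.3, 32.7 and 29.5 CPM in libraries labelled U118-MG sgDDA1, against 7.04, 15.2 and 12.9 CPM in the libraries labelled U118-MG sgCon (1.28, SE 0.18). Without the library labelled U118-MG sgCon 1, 37 members were lower and 1 higher, and the median log2 fold change was -0.94. MCM5, PCNA, RFC4, TYMS, RRM1 and DUT overlapped between these groups and did not pass the test. The G2/M genes summed to 2393 to 3211 CPM in libraries labelled U118-MG sgDDA1 and 2327 to 2796 CPM in the libraries labelled U118-MG sgCon.

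**Figure D5:**
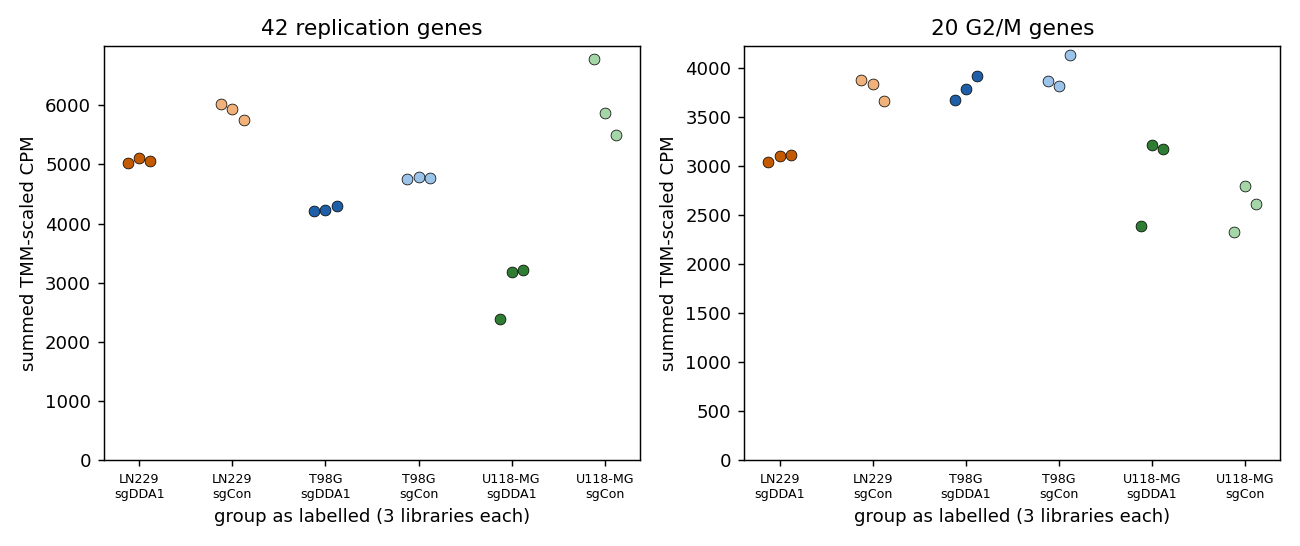
Summed TMM-scaled CPM of the 42 replication genes (left) and of 20 G2/M genes (right) in each library, by group as labelled. The replication genes are lower in sgDDA1 than in sgCon in LN229 and T98G without overlap, and the libraries labelled U118-MG sgDDA1 are lowest at 2396 to 3216 CPM.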

How the data were processed

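The labels' protocols describe Trizol extraction of total RNA and a standard Illumina library. Per the submitters' processing notes, fastp 0.19.6, STAR 2.4.0, HTSeq 0.12.4 and DESeq2 were used with GRCh38. Per the file headers, the authors deposited raw counts and FPKM per gene, and FPKM were used only to compare levels between genes. No data column was left without a sample (0).

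Counts were tested with edgeR 4.0.16 in R 4.3.3 (filterByExpr, TMM, quasi-likelihood F-test, 1 mean per group). Adjusted p-values (Benjamini-Hochberg) covered every gene that passed the filter, 23082 for the 12 LN229 and T98G libraries and 24418 for all 18. SE is the log2 fold change divided by the root of F. Levels use TMM factors of all 18 libraries. Members and lists were chosen with earlier results of these data known, and so was the fit without the libraries labelled U118-MG. All members are named. From other lists the text names DDA1, up to 3 calls of largest size per list and line, and the marker genes given as checks. NES, DTL in LN229 and CDKN1A in T98G were added after their values were seen. Coordinates and overlaps are from GENCODE 29. Alternatives were other size factors, DESeq2 1.42.0, no filter, halved counts, other library sets and a replicate block. The procedure was tested on simulated data.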

Additional observations from a re-analysis of the deposited data

Results flagged for a closer look

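For 19 members the interaction test called a difference between T98G and LN229 in the response to the DDA1 guide, at an adjusted p under 0.05. The background in the same fit is 39.2% of all genes tested, and 31.2% higher with 27.9% lower among genes at the members' level. Of the 19, 3 (MCM5, PRIM1 and CCNE1) stayed called in the fit of all 18 libraries, for which no background share is given. The T98G response minus the LN229 response, on the log2 scale, was 0.64 for MCM5, 0.36 for MCM7, 0.35 for MCM6, 0.35 for TYMS, 0.31 for POLE and 0.30 for GINS2. It was 0.25 for UHRF1, 0.24 for MCM2, 0.20 for DUT, 0.20 for CHAF1B and 0.16 for GMNN. It was -0.68 for CCNE1, -0.61 for PRIM1, -0.38 for RFC4, -0.37 for GINS4, -0.19 for CDC45, -0.19 for RFC5, -0.17 for ORC1 and -0.14 for RRM1. MCM5, MCM6 and POLE fell in LN229 and rose in T98G, and RFC4 and PRIM1 rose in LN229 and fell in T98G. The other 14 were called in 1 line or moved the same way in both.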

How the results depend on the processing

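Counts of called members moved by more than 1.5 times in 1 setting, the fit of all 18 libraries. There 13 were called in LN229 (31 without the libraries labelled U118-MG), 11 in T98G (29) and 3 for the difference of responses (19). The share of all genes called in that fit is not given here. ORC1, CDC6, GINS3, FEN1, RRM1, RRM2 and CCNE2 were called lower in both lines in every setting run. Leaving out 1 library at a time gave 27 to 29 called members in LN229, 27 to 31 in T98G, 16 to 20 for the difference, 38 to 40 for T98G sgCon against LN229 sgCon, 36 to 38 for U118-MG as labelled and 29 to 30 for U118-MG sgDDA1 against T98G sgDDA1. In LN229 the higher calls depended on the setting, with 4 by TMM and 1 without the filter, with halved counts or with the 6 LN229 libraries alone. No called value changed direction in any setting. In LN229, deviations of same-numbered sgDDA1 and sgCon libraries correlated weakly, at 0.0815, 0.0455 and 0.0707, against -0.0807 to 0.00147 for other pairs. In T98G same-numbered pairs gave -0.0188 to 0.00775 and other pairs -0.0371 to 0.0442. The replicate numbers thus paired libraries at most weakly in LN229 and not in T98G. With a replicate block, 30 members were called in LN229, 29 in T98G and 21 for the difference. It gave 40 between control groups, 36 for U118-MG as labelled and 31 for U118-MG sgDDA1 against T98G sgDDA1. PCNA, RFC4, POLD1, DUT, CHAF1B and E2F2 in LN229, and CDT1, GINS1, RFC2, POLA2, POLE and E2F1 in T98G, lost their call in at least 1 setting other than the fit of 18. RLE scaling shifted the median of all genes by -0.0238 to 0.0131 (log2). Without LN229 sgCon 1, the deepest library, 27 members were called in LN229.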

Other observations

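Ratios within a library do not depend on its scaling. The FPKM ratio of CDT1 to GMNN was 0.576 ± 0.00422 in LN229 sgDDA1 and 0.502 ± 0.0159 in LN229 sgCon (mean ± SD, n = 3 each), without overlap, and 0.676 ± 0.0239 in T98G sgDDA1 and 0.704 ± 0.0196 in T98G sgCon, with overlap. The ratio of CDC6 to CDT1 was lower under the DDA1 guide in both lines, at 0.845 ± 0.0565 in LN229 sgDDA1 and 1.11 ± 0.0243 in LN229 sgCon, and at 1.47 ± 0.0219 in T98G sgDDA1 and 1.95 ± 0.0788 in T98G sgCon. The ratio of the cyclins CCNE2 to CCNE1 was 3.02 ± 0.381 in libraries labelled U118-MG sgDDA1, against 0.195 ± 0.076 in those labelled U118-MG sgCon. It was 0.368 ± 0.0252 in LN229 sgDDA1 and 0.532 ± 0.0265 in LN229 sgCon, and 1.03 ± 0.136 in T98G sgDDA1 and 0.908 ± 0.0653 in T98G sgCon. These ratios were picked after the values of their genes were seen and were not tested.

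The members that differed between the lines were unevenly spread over promoters with and without an E2F word. Of the 21 members with a word, 9 had a response called higher in T98G than in LN229 and 0 called lower. Of the 17 without one, 1 was called higher and 7 lower. The shares were 18.3% higher and 20.9% lower of all genes, and 31.2% higher and 27.9% lower of genes at the members' level. In the fit of all 18 libraries, 0 of the 21 were called in either direction, and 0 of the 17 were called higher and 2 lower. The 4 members without a window, MCM4, MCM5, GINS4 and CCNE2, are outside this split. Of them MCM5 was called higher and GINS4 lower, and MCM5 stayed called higher in the fit of all 18 libraries. In LN229, 14 of the 21 and 10 of the 17 were called lower, and in T98G 10 of the 21 and 13 of the 17. Of genes at the members' level, 38.6% were called lower in LN229 and 35.5% in T98G. This split was made after the responses were known and is given with no test, and it says nothing of binding by any factor.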
